A study of Macaca mulatta with 52 samples.

Results

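The genes described here encode the nuclear subunits of the mitochondrial respiratory chain and of ATP synthase. They were taken by symbol, without use of any measured value: all NDUFA, NDUFB, NDUFC, NDUFS and NDUFV genes, the SDHA to SDHD genes, the UQCR genes and CYC1, the COX4 to COX8 families, and all ATP5 genes. The rule found 50 genes among 15078 identifiers with a symbol and 26309 identifiers in all. By their symbols 23 belong to complex I, 4 to complex II, 5 to complex III, 7 to complex IV and 11 to complex V. Another 36 symbols of the rule that stand in the RefSeq gene table had no named identifier and were not analysed here, among them NDUFV2, UQCRFS1, UQCRQ, COX5B and ATP5PO.

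The respiratory chain passes electrons from NADH (complex I) and succinate (complex II) through complexes III and IV to oxygen, and pumps protons across the inner mitochondrial membrane. ATP synthase (complex V) lets the protons flow back through a ring of c subunits and uses the flow to make ATP. Most subunits are encoded in the nucleus and made in the cytosol, and early embryos start with mitochondria and transcripts laid down in the oocyte.

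The study sequenced RNA of single rhesus monkey (Macaca mulatta) embryos to compare stages before implantation. All embryos came from oocytes that had matured in vivo in hormone-stimulated females, were fertilised in vitro and were stripped of cumulus cells by pipetting. Culture was with or without relaxin, and the labels do not say which embryo received it. Libraries were made with 2 kits: SPIA, the Ovation RNA-Seq System v2, which amplifies cDNA linearly, and SoLo, the Ovation SoLo kit, with depletion of ribosomal sequences. The SPIA set used here numbers 9 embryos of 8 cells, 11 morulas, 14 blastocysts labelled expanded and 2 labelled delayed, and the SoLo set numbers 4, 3 and 6 of the first 3 stages. No strain, allele or age is labelled for any group. The 13 SoLo libraries were made from embryos that also gave SPIA libraries, so the kits are not independent samples of embryos. SPIA libraries held 0.601 to 21.0 M counts and SoLo libraries 5.70 to 10.6 M.

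Levels are in CPM, the count of a gene relative to the scaled total of its library, with scaling within a kit, so a level in SPIA and a level in SoLo are not on a common scale except where stated. Counts were not divided by gene length, so levels are compared between groups and not between genes. A gene is called changed where the Benjamini-Hochberg adjusted p of edgeR's quasi-likelihood test, over all identifiers tested, is under 0.05. Calls given without a tool are those of edgeR with all libraries. In each fit 48 of the 50 genes had enough counts to be tested. The 2 others were NDUFA4L2, with 0 counts in all 49 libraries (an upper limit of 0.00897 CPM over the SPIA libraries and 0.0287 over the SoLo libraries), and COX7A1, with 37 counts in SPIA and 55 in SoLo.

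Some libraries stood apart from their group. Markers of genome activation at the 8-cell stage (ZSCAN4, LEUTX, TPRX1 and RBP7) summed to 582 CPM in the SPIA library labelled morula 022916_02, against 1.45 to 70.7 CPM in the other morulas and 197 to 584 CPM in 8-cell libraries. The 8-cell SPIA library 020816_09 had 0 counts for 9 of the 50 genes, the most of any library, and an oocyte marker sum of 3102 CPM against a group median of 402 CPM. Cumulus and granulosa cell markers (14 genes) summed to 4.47 to 1648 CPM in 8-cell SPIA libraries and 21.2 to 2317 CPM in 8-cell SoLo libraries, against at most 76.0 CPM in later SPIA stages and 152 CPM in later SoLo stages. Embryos 020816_06, 020816_07 and 112815_02 were high in both kits. The 8-cell SPIA libraries 112815_01, 011516_02 and 020816_09 also lay above every later SPIA library, at 260, 221 and 114 CPM. These libraries stayed in the SPIA runs described below as without the 3 embryos rich in cumulus markers. Trophectoderm markers summed to 0.415 to 18.6 CPM in 8-cell SPIA, 6.15 to 392 CPM in SPIA morulas and 50.3 to 1142 CPM in expanded SPIA blastocysts, and to 8.71 to 65.2, 7.62 to 1223 and 1358 to 2682 CPM in SoLo, so that SPIA morulas overlapped the blastocysts. Markers of blood and immune cells and of sperm stayed at or under 29.1 CPM in every library. The 20 most abundant identifiers took a median of 28.7% of the counts in 8-cell SPIA libraries, 55.6% in morulas and 57.9% in expanded blastocysts. Title codes, which may mark a collection day, differ between stages: only code 020816 held both 8-cell embryos and morulas.

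Summed over the 50 genes, the level at the 8-cell stage was 1287 ± 522 CPM (SD, n = 9) in SPIA. It was 2528 ± 682 CPM (n = 11) in morulas, 2582 ± 339 CPM (n = 14) in expanded blastocysts and 2823 ± 435 CPM (n = 2) in delayed blastocysts. In SoLo the sums were 2171 ± 279 CPM (n = 4), 4884 ± 872 CPM (n = 3) and 6182 ± 482 CPM (n = 6) in stage order. Every SoLo morula and blastocyst lay above every SoLo 8-cell embryo, while in SPIA the highest 8-cell embryo, at 2338 CPM, lay above the lowest morula, at 1214 CPM, and the lowest expanded blastocyst, at 1726 CPM. In whole embryos, more cells with a transcript and more RNA of it per cell cannot be told apart. CPM is relative to the library total, so a larger share and a larger amount per embryo cannot be told apart either. The spread within a group was also widest at the 8-cell stage: the median coefficient of variation of single genes was 90.5% in 8-cell SPIA libraries, 74.2% in morulas and 43.2% in expanded blastocysts, and 43.4%, 31.6% and 17.0% in SoLo.

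**Figure D1:**
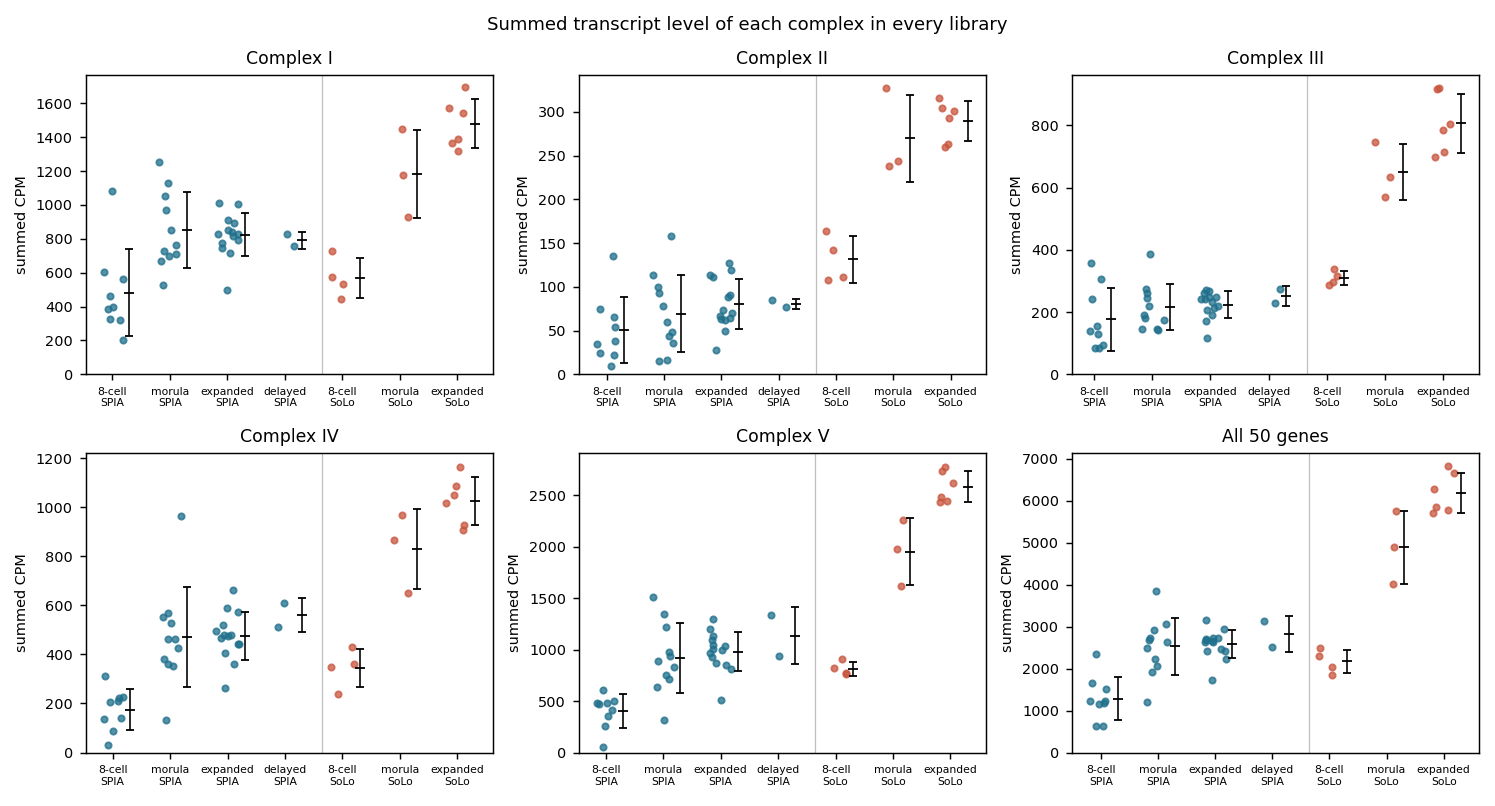
Summed CPM of each complex and of all 50 genes (y axis) in every library, by stage and kit (x axis), with SPIA in blue and SoLo in red and the mean ± SD in black. The SoLo morulas and blastocysts lie above the SoLo 8-cell embryos in every panel, and the SPIA morulas and expanded blastocysts overlap the SPIA 8-cell embryos in every panel.

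From the 8-cell stage to the morula, the SPIA calls of edgeR with all libraries lay in complexes I, IV and V. Those in SoLo lay in all 5 complexes. Other runs also called CYC1 and UQCRB of complex III in SPIA, as given below. In SPIA 15 of 48 genes rose and 0 fell, where 9.06% of all identifiers tested rose and 10.3% fell. Their median log2 fold change was 1.05, against -0.14 over all identifiers. In SoLo 26 genes rose and 1 fell, where 9.78% of all identifiers rose and 6.92% fell, and the medians were 1.12 and -0.06. Without the library labelled morula 022916_02, 18 genes rose and 1 fell in SPIA, without the 8-cell library 020816_09 12 rose and 1 fell, and without both 18 rose and 1 fell. Without the 3 embryos rich in cumulus markers 12 rose and 0 fell in SPIA, and 25 rose and 1 fell in SoLo, where 1 8-cell library was then left and was assumed to vary like the other groups. The calls lost without these embryos were ATP5F1C, ATP5ME, ATP5PD and NDUFB5 in SPIA, and included ATP5ME, CYC1, NDUFA10, SDHB and UQCRB in SoLo. Without the 8-cell library 020816_09 the SPIA calls of ATP5PD, NDUFA9, NDUFB5 and NDUFS6 were lost. With only 8-cell embryos and morulas in the fit, edgeR called 4 genes in SPIA (ATP5F1A, ATP5MC3, COX5A and NDUFA4). The 11 calls then lost were ATP5F1C, ATP5ME, ATP5PD, COX4I1, COX6C, COX7B, NDUFA9, NDUFB4, NDUFB5, NDUFB8 and NDUFS6. With voom the SPIA calls of COX4I1, COX6C, NDUFA9, NDUFB8 and NDUFS6 were lost. With the 20 most abundant identifiers left out of the scaling, 16 genes rose in SPIA morulas and 25 in SoLo morulas.

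From the 8-cell stage to the expanded blastocyst, 17 genes rose and 0 fell in SPIA, where 12.9% of all identifiers rose and 23.7% fell, with medians of 1.09 for the 48 genes and -0.43 for all identifiers. With DESeq2 size factors the median of all identifiers was -0.31 here, and -0.14 in place of -0.29 between morula and expanded blastocyst, so the background itself moves with the scaling. In SoLo 34 genes rose and 1 fell, where 18.6% of all identifiers rose and 19.8% fell, with medians of 1.37 and -0.05. Without the 3 embryos rich in cumulus markers 15 genes rose and 0 fell in SPIA, and 31 rose and 0 fell in SoLo. The calls then lost were ATP5F1C, ATP5ME, NDUFB2 and NDUFB5 in SPIA, and ATP5IF1, ATP5ME, ATP5PF, COX7B, NDUFB1, NDUFV1, NDUFV3 and UQCRB in SoLo. Both stages were compared with the same 8-cell libraries. Among title code 020816 alone (5 8-cell embryos and 3 morulas in SPIA) 0 genes were called by edgeR and 4 had an unadjusted p under 0.05, while their median was 1.24. Only 4 of 11244 identifiers were called there in all, so the count of 0 says nothing of these genes. Stage and title code otherwise cannot be told apart.

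**Figure D2:**
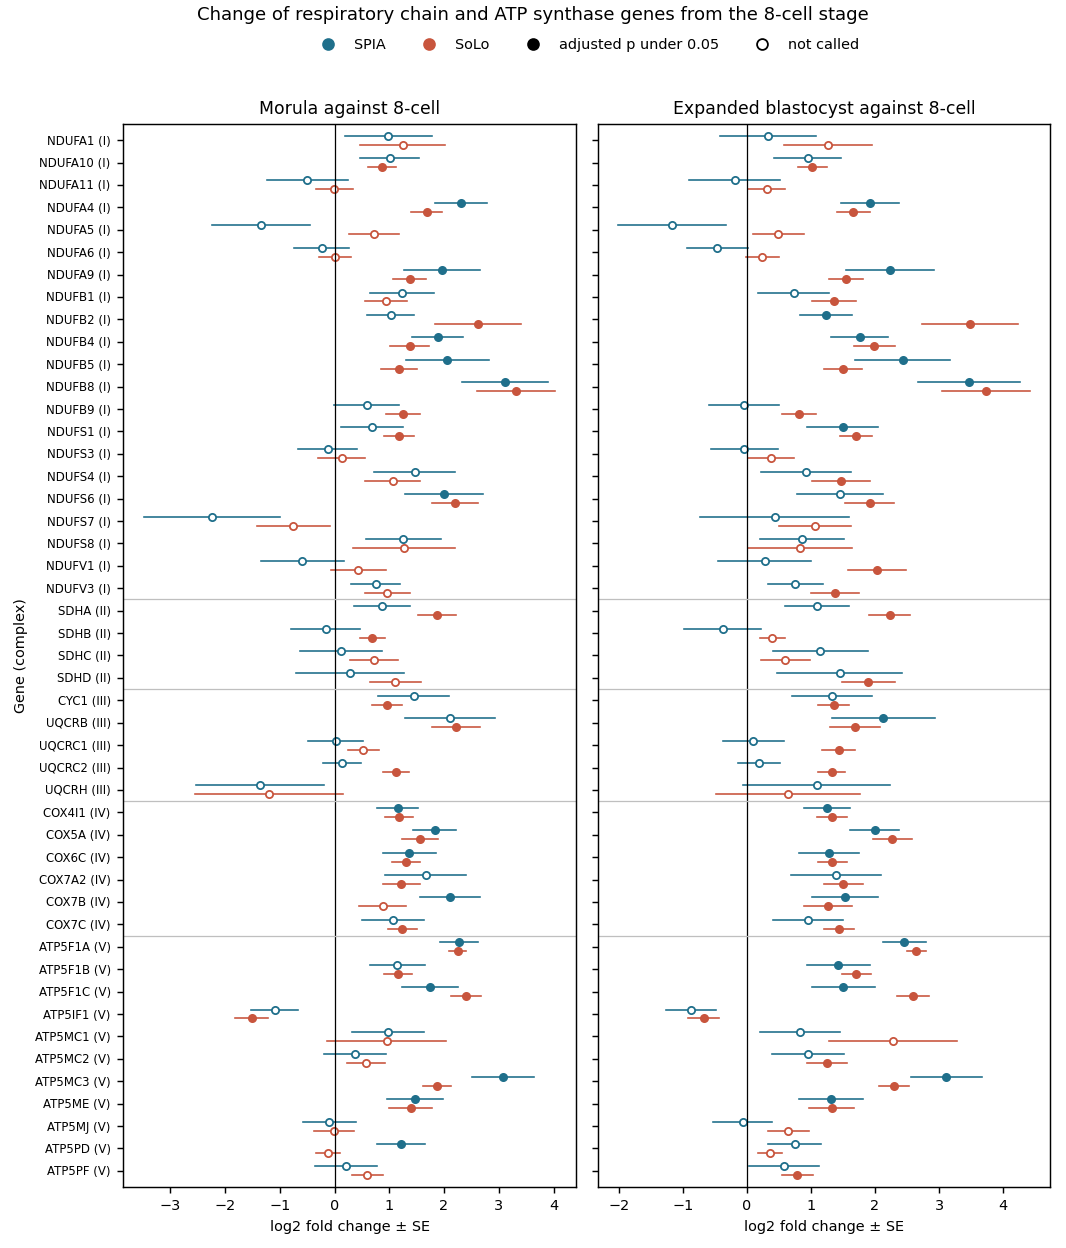
log2 fold change ± SE (x axis) of 47 of the 48 tested genes (y axis, by complex) from the 8-cell stage to the morula (left) and to the expanded blastocyst (right), in SPIA (blue) and SoLo (red), with filled points at an adjusted p under 0.05. ATP5IF1 lies left of 0 in both panels and both kits, at -1.10 and -1.51 in morulas.

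In complex V 5 of 11 genes rose to the morula in each kit, and its gene ATP5IF1 was the one called in the opposite direction. ATP5F1A, the alpha subunit of the catalytic head, ranged from 25.4 to 109 CPM (median 73.5) in 8-cell SPIA libraries, from 41.6 to 662 CPM (median 332) in morulas and from 174 to 602 CPM (median 384) in expanded blastocysts. Its delayed blastocysts stood at 430 and 590 CPM. The expanded blastocysts did not overlap the 8-cell embryos, and the lowest morula was the library 022916_02. In SoLo the 8-cell embryos had 154, 181, 191 and 203 CPM, the morulas 803, 866 and 932 CPM, and the expanded blastocysts 1071 to 1214 CPM (median 1137), with no overlap between any of the 3 stages. The log2 fold change to the morula was 2.27 ± 0.34 (SE, edgeR adjusted p = 1.77e-05) in SPIA and 2.25 ± 0.16 (edgeR adjusted p = 3.08e-07) in SoLo.

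ATP5F1C, the gamma subunit that turns inside the head, went from 18.1 ± 22.3 CPM in 8-cell SPIA libraries (n = 9) to 60.8 ± 41.3 CPM in morulas (n = 11) and 51.3 ± 22.8 CPM in expanded blastocysts (n = 14). Its SoLo levels were 49.2 ± 17.1, 260 ± 43.4 and 297 ± 50.7 CPM in stage order (n = 4, 3 and 6), with every morula above every 8-cell embryo and a log2 fold change of 2.40 ± 0.28 (edgeR adjusted p = 3.26e-05). ATP5F1B, the beta subunit with the catalytic sites, rose in SoLo morulas (1.16 ± 0.25, edgeR adjusted p = 0.00495). In SPIA its change to the morula was 1.14 ± 0.50 (edgeR adjusted p = 0.101), and its change to the expanded blastocyst of 1.42 ± 0.49 passed the test (edgeR adjusted p = 0.0201).

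The c subunit of the rotor ring, which is the same mature protein whichever gene makes it, is encoded by ATP5MC1, ATP5MC2 and ATP5MC3. ATP5MC3 ranged from 0.274 to 57.7 CPM (median 12.6) in 8-cell SPIA libraries, from 4.86 to 618 CPM (median 91.2) in morulas and from 32.0 to 233 CPM (median 149) in expanded blastocysts. In SoLo the 8-cell embryos had 52.4, 56.6, 69.9 and 90.0 CPM and the morulas 160, 248 and 332 CPM, with no overlap. Its log2 fold change to the morula was 3.07 ± 0.56 in SPIA (edgeR adjusted p = 0.000304) and 1.88 ± 0.25 in SoLo (edgeR adjusted p = 0.000122).

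ATP5MC1 and ATP5MC2 were not called from the 8-cell stage to the morula in either kit. The log2 fold changes of ATP5MC1 were 0.97 ± 0.65 in SPIA (edgeR adjusted p = 0.302) and 0.95 ± 1.08 in SoLo (edgeR adjusted p = 0.585), and its SoLo levels were low, at 0, 2.61, 3.03 and 3.85 CPM in 8-cell embryos. Those of ATP5MC2 were 0.37 ± 0.57 (edgeR adjusted p = 0.694) and 0.57 ± 0.35 (edgeR adjusted p = 0.276). ATP5MC2 rose to the expanded blastocyst in SoLo, from 57.0 ± 19.1 CPM (n = 4) to 136 ± 48.6 CPM (n = 6, edgeR adjusted p = 0.00482). DESeq2 and voom called ATP5MC1 higher there as well. In SPIA voom called ATP5MC1 and ATP5MC2 higher in expanded blastocysts, where edgeR with all libraries did not. Differences between the 3 genes were not tested.

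ATP5IF1 encodes the inhibitor protein that binds ATP synthase and keeps it from splitting ATP when the proton gradient fails. In SoLo its 8-cell embryos had 98.8, 115, 132 and 239 CPM, its morulas 39.4, 46.3 and 68.0 CPM and its expanded blastocysts 81.9 to 106 CPM (median 90.3). The SoLo morulas lay below all 8-cell embryos, while the blastocysts overlapped them. It fell by 1.51 ± 0.30 on the log2 scale to the SoLo morula (edgeR adjusted p = 0.00300) and by 0.67 ± 0.24 to the SoLo expanded blastocyst (edgeR adjusted p = 0.0367). The second call was lost without the 8-cell library 112815_02, which held the highest value, without the 3 embryos rich in cumulus markers, and with voom.

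In SPIA the level of ATP5IF1 ranged from 1.64 to 170 CPM (median 116) in 8-cell embryos, from 18.3 to 108 CPM (median 45.1) in morulas and from 27.5 to 109 CPM (median 59.3) in expanded blastocysts. The lowest 8-cell value was that of library 020816_09, while the other 8-cell libraries held 79.1 CPM or more, and the highest morula was library 022916_02. With all libraries the log2 fold change to the morula was -1.10 ± 0.42 (edgeR adjusted p = 0.0583). It was -1.26 ± 0.43 without morula 022916_02 (edgeR adjusted p = 0.0275) and -1.43 ± 0.34 without both libraries (edgeR adjusted p = 0.00269). DESeq2 called it as well, at -1.14 ± 0.40 (DESeq2 adjusted p = 0.0281). To the SPIA expanded blastocyst ATP5IF1 was not called with all libraries, and edgeR called it lower without the 8-cell library 020816_09.

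**Figure D3:**
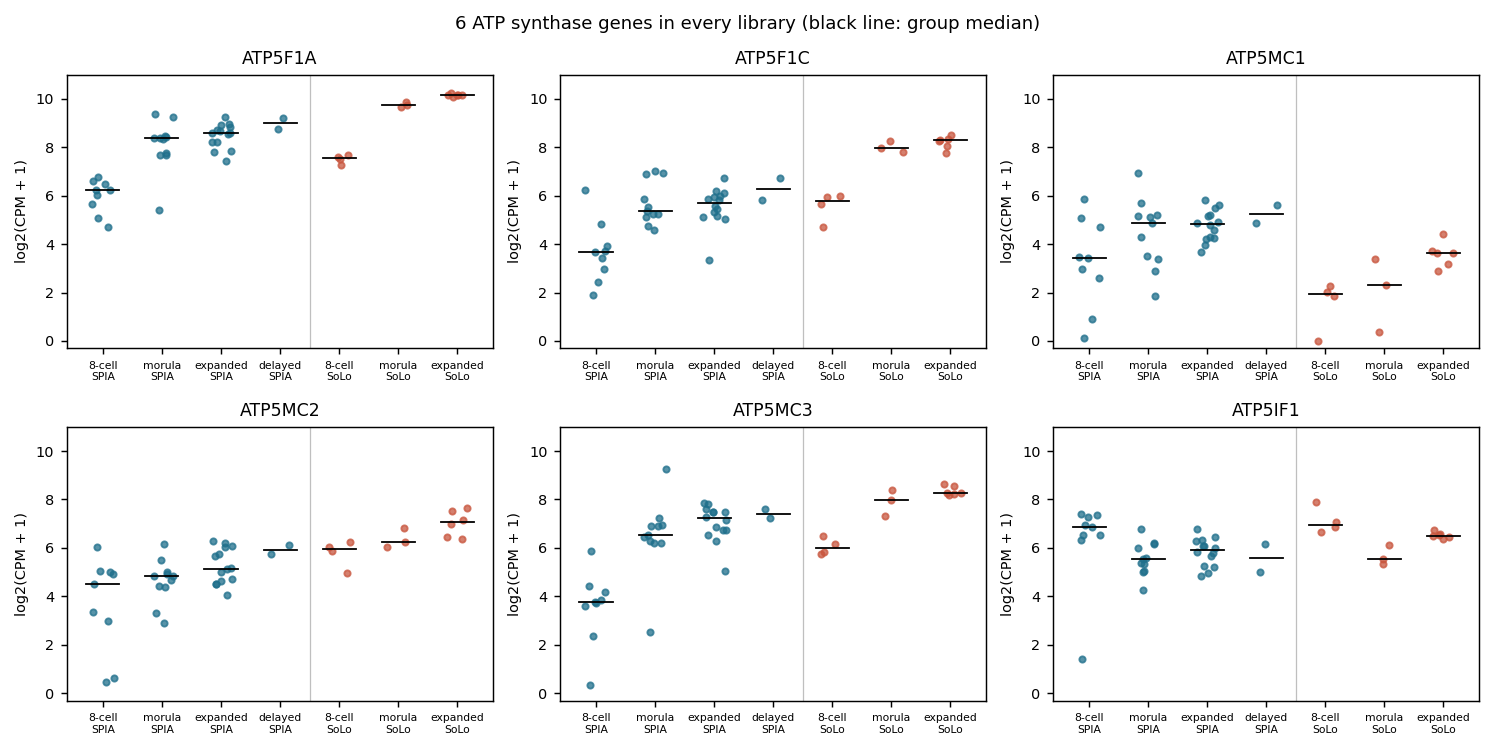
log2(CPM + 1) (y axis) of 6 ATP synthase genes in every library, by stage and kit (x axis), with SPIA in blue, SoLo in red and a black line at the group median. ATP5F1A, ATP5F1C and ATP5MC3 stand higher in morulas than in 8-cell embryos in both kits, and the median of ATP5IF1 stands lower.

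Among the remaining complex V genes, ATP5ME, subunit e of the membrane part, rose in all 4 comparisons with the 8-cell stage, by 1.32 to 1.47 on the log2 scale. Both of its SPIA calls were lost without the 3 embryos rich in cumulus markers, and also with only the groups compared in the fit. ATP5PD, subunit d of the stalk that holds the head still, rose in SPIA morulas (1.22 ± 0.44, edgeR adjusted p = 0.0434) but was at -0.13 ± 0.22 in SoLo (edgeR adjusted p = 0.732). The test of that difference between the kits in the same embryos gave -1.51 ± 0.54 with an unadjusted p of 0.00853 and an edgeR adjusted p of 0.356. ATP5PF, coupling factor 6, rose in the SoLo expanded blastocyst (0.78 ± 0.25, edgeR adjusted p = 0.0188), and ATP5MJ was not called in any of the 4 comparisons with all libraries. Without 8-cell 020816_07, edgeR called ATP5MJ higher in SoLo expanded blastocysts.

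In complex IV, cytochrome c oxidase, all 6 tested genes had positive log2 fold changes in the 4 comparisons with the 8-cell stage. COX4I1, COX5A and COX6C rose in all 4. COX5A, a subunit on the matrix side, ranged from 8.39 to 102 CPM (median 40.3) in 8-cell SPIA libraries, from 36.8 to 194 CPM (median 146) in morulas and from 91.4 to 212 CPM (median 140) in expanded blastocysts. In SoLo its 8-cell embryos had 37.2, 45.8, 66.2 and 93.3 CPM and its morulas 90.9, 181 and 267 CPM, so that 1 morula lay below the highest 8-cell embryo. The expanded blastocysts, at 254 to 374 CPM, lay above all 8-cell embryos.

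The change of COX5A to the morula was 1.83 ± 0.39 in SPIA (edgeR adjusted p = 0.00158) and 1.57 ± 0.33 in SoLo (edgeR adjusted p = 0.00394). COX4I1, the isoform of subunit 4 found in most tissues, rose from 72.2 ± 53.9 CPM (n = 9) to 160 ± 51.8 CPM (n = 11) in SPIA and from 104 ± 35.9 CPM (n = 4) to 234 ± 36.6 CPM (n = 3) in SoLo. COX7B rose in SPIA morulas (2.10 ± 0.54, edgeR adjusted p = 0.00645), while in SoLo morulas it was at 0.88 ± 0.43 (edgeR adjusted p = 0.162). COX7A2 and COX7C rose in both SoLo comparisons and, by edgeR with all libraries, in neither SPIA comparison. In SPIA, voom and edgeR without the 3 embryos rich in cumulus markers called COX7A2 higher in morulas and in expanded blastocysts. DESeq2 called COX7A2, and voom COX7C, higher in SPIA expanded blastocysts only. Of the paired isoforms of subunit 7a, COX7A1, the form of heart and skeletal muscle, was at or near 0 in all groups, with at most 5.13 CPM in 1 SoLo morula, and COX7A2, the form found in most tissues, went from 38.6 ± 20.0 CPM (n = 4) to 89.6 ± 12.2 CPM (n = 3) and 110 ± 24.1 CPM (n = 6) in SoLo.

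In complex I, NADH dehydrogenase, 6 of 22 tested genes rose to the morula in SPIA and 11 in SoLo, and 7 and 15 rose to the expanded blastocyst. In all 4 comparisons the largest called change was that of NDUFB8, an accessory subunit of the membrane arm. Its 8-cell SPIA libraries ranged from 0 to 5.46 CPM (median 1.88), its morulas from 0.366 to 48.0 CPM (median 21.7) and its expanded blastocysts from 5.93 to 48.2 CPM (median 24.6). Every expanded blastocyst lay above every 8-cell embryo, and the 2 low morulas were 022916_02 and 022916_03. In SoLo the 8-cell embryos had 0.226, 1.74, 4.36 and 11.8 CPM and the morulas 31.2, 44.9 and 59.8 CPM, with no overlap. The log2 fold changes to the morula were 3.11 ± 0.79 in SPIA (edgeR adjusted p = 0.00570) and 3.31 ± 0.72 in SoLo (edgeR adjusted p = 0.00586). NDUFB8 was not called in SPIA morulas with voom or with only these groups in the fit.

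NDUFA4 carries a complex I name, although the protein is also known as a subunit found with complex IV. It ranged from 4.64 to 34.9 CPM (median 9.15) in 8-cell SPIA libraries and from 21.1 to 214 CPM (median 40.1) in morulas, and in SoLo from 22.7 to 39.6 CPM and from 57.9 to 127 CPM, with no overlap in SoLo. Its log2 fold change to the morula was 2.31 ± 0.48 in SPIA (edgeR adjusted p = 0.00118) and 1.68 ± 0.29 in SoLo (edgeR adjusted p = 0.000882). NDUFA9, NDUFB4 and NDUFB5, accessory subunits, rose in all 4 comparisons, by 1.17 to 2.43 on the log2 scale. NDUFS6, an accessory subunit that holds zinc, rose in SPIA morulas (2.00 ± 0.71, edgeR adjusted p = 0.0403) and in both SoLo comparisons. NDUFB2 rose to the SPIA expanded blastocyst by 1.24 ± 0.41 (edgeR adjusted p = 0.0157), and in SoLo by 2.62 ± 0.78 to the morula (edgeR adjusted p = 0.0336) and by 3.49 ± 0.75 to the expanded blastocyst (edgeR adjusted p = 0.00235).

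The core subunits of complex I, which carry the flavin and iron-sulfur clusters, did not give 1 pattern. NDUFS1, the largest of them, rose in SoLo morulas (1.18 ± 0.28, edgeR adjusted p = 0.00797) and in expanded blastocysts of both kits. NDUFV1, which binds NADH, rose in neither morula comparison but rose to the SoLo expanded blastocyst by 2.03 ± 0.45 (edgeR adjusted p = 0.00232). NDUFS3, NDUFS7 and NDUFS8 were not called by edgeR in any of the 4 comparisons, while voom called NDUFS7 higher in expanded blastocysts of both kits. NDUFS8 had 1 count (0.113 CPM) in the SoLo 8-cell library 020816_08 and 4.14 to 5.23 CPM in the other SoLo 8-cell libraries. Only 020816_08 is left there without the 3 embryos rich in cumulus markers, so NDUFS8 calls in that fit rest on this 1 count.

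NDUFS7, which holds the last iron-sulfur cluster before ubiquinone, had log2 fold changes of -2.24 ± 1.24 to the SPIA morula (edgeR adjusted p = 0.204) and -0.75 ± 0.66 to the SoLo morula (edgeR adjusted p = 0.459). In the 8-cell SPIA library 020816_07, the highest in cumulus markers (1648 CPM), NDUFS7 had 19.15 CPM, against 0 to 8.12 CPM in the other 8-cell SPIA libraries. NDUFS7 ran from 2.93 to 10.6 CPM in SoLo morulas and from 16.7 to 31.1 CPM in SoLo expanded blastocysts, without overlap. The rise between those groups of 1.81 ± 0.65 missed the threshold (edgeR adjusted p = 0.181). The accessory genes NDUFA1, NDUFA5, NDUFA6 and NDUFA11 were not called in any of the 4 comparisons by edgeR with all libraries, with NDUFA5 at -1.35 ± 0.90 in SPIA morulas (edgeR adjusted p = 0.303). Voom, and edgeR without 8-cell 020816_06, called NDUFA1 higher in SoLo expanded blastocysts. NDUFA5 was also highest in the 8-cell SPIA library 020816_07, at 38.7 CPM against 0 to 10.8 CPM in the other 8-cell SPIA libraries. NDUFA10, NDUFB1, NDUFB9, NDUFS4 and NDUFV3 were called by edgeR with all libraries in SoLo comparisons alone. In SPIA voom called NDUFV3 higher in morulas and expanded blastocysts, and NDUFA10 higher in expanded blastocysts. Without morula 022916_02 and 8-cell 020816_09, edgeR called NDUFS4 higher in SPIA morulas. The kits' difference in the changes of these genes was tested as described below.

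Complex II, succinate dehydrogenase, also takes part in the citrate cycle. None of its 4 genes was called in SPIA by edgeR with TMM scaling at any stage (DESeq2, and edgeR with its size factors, called SDHA, and voom SDHA and SDHD, higher in expanded blastocysts than at the 8-cell stage), and SDHA and SDHB rose in SoLo morulas. SDHA, the subunit that oxidises succinate, had 15.3, 16.0, 31.0 and 39.6 CPM in SoLo 8-cell embryos, 58.3, 83.1 and 137 CPM in morulas and 97.8 to 137 CPM in expanded blastocysts. Both later stages lay above all 8-cell embryos, with a log2 fold change of 1.86 ± 0.34 to the morula (edgeR adjusted p = 0.00159). In SPIA it ranged from 3.02 to 69.8 CPM (median 14.8), from 11.2 to 120 CPM (median 28.1) and from 9.71 to 81.9 CPM (median 46.8) in stage order, and the groups overlapped throughout.

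The change of SDHA in SPIA was 0.87 ± 0.52 (edgeR adjusted p = 0.241). SDHB, the iron-sulfur subunit, had a SoLo change to the morula of 0.69 ± 0.23 (edgeR adjusted p = 0.0493), a call lost with DESeq2, with size factors in edgeR and with other filters. SDHC and SDHD anchor the complex in the membrane. SDHD rose to the SoLo expanded blastocyst by 1.89 ± 0.42 (edgeR adjusted p = 0.00212) from 10.7 ± 7.49 CPM (n = 4) to 39.7 ± 7.03 CPM (n = 6). In SPIA it stood at 0.619 ± 0.937 CPM (n = 9) and 1.69 ± 1.21 CPM (n = 14). SDHC was not called in any of the 4 comparisons.

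In complex III, the cytochrome bc1 complex, 0 of 5 genes were called in SPIA morulas by edgeR with all libraries and 3 rose in SoLo morulas. DESeq2 and voom called CYC1 higher in SPIA morulas. UQCRB was called higher there by DESeq2, by edgeR with DESeq2 size factors and by edgeR without morula 022916_02. UQCRC2, a core subunit, had 80.3, 126, 129 and 158 CPM in SoLo 8-cell embryos and 234, 244 and 329 CPM in morulas. Those groups did not overlap, and it rose by 1.12 ± 0.23 (edgeR adjusted p = 0.00373). In SPIA its 8-cell embryos ranged from 47.1 to 245 CPM (median 82.0), its morulas from 31.6 to 337 CPM (median 109) and its expanded blastocysts from 75.4 to 180 CPM (median 129), and the change to the morula was 0.14 ± 0.34 (edgeR adjusted p = 0.821).

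UQCRB, which helps to bind ubiquinone, rose in SoLo morulas (2.22 ± 0.44, edgeR adjusted p = 0.00259) and in SPIA expanded blastocysts (2.13 ± 0.80, edgeR adjusted p = 0.0324). CYC1, cytochrome c1, rose in SoLo morulas from 73.8 ± 13.5 CPM (n = 4) to 144 ± 22.0 CPM (n = 3). UQCRC1, the other core subunit, rose to the SoLo expanded blastocyst by 1.43 ± 0.26 (edgeR adjusted p = 0.000462), where its SoLo change to the morula was 0.53 ± 0.29 (edgeR adjusted p = 0.220). UQCRH was low in every group, with a mean of at most 8.33 ± 3.19 CPM (n = 6), and edgeR with all libraries did not call it. Voom called it higher in expanded blastocysts than at the 8-cell stage in both kits. Without the SoLo 8-cell library 112815_02, edgeR also called it higher in SoLo expanded blastocysts. That library held 19.0 CPM, against 0, 0.226 and 2.29 CPM in the other SoLo 8-cell libraries.

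Of the 27 SoLo calls in morulas over all complexes, 9 were lost when 1 library was left out. Among them, SDHB was lost without 8-cell 020816_06 or 020816_07 or any 1 morula, and NDUFB2 without 8-cell 020816_06 or 020816_08 or morula 021016_02 or 022916_01. ATP5ME was lost without 8-cell 020816_07 or morula 021016_02 or 022916_01, COX7A2 without 8-cell 020816_07 or 020816_08 or morula 021016_02, and CYC1 without 8-cell 020816_06 or 020816_08 or morula 022916_01. NDUFB5 was lost without morula 021016_02 or 022916_01, NDUFA10 without 8-cell 020816_06 or morula 021016_03, and NDUFB4 without morula 022916_01. To the SoLo expanded blastocyst, ATP5PF and NDUFB9 were lost without 8-cell 020816_06 or 020816_08.

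Between morula and expanded blastocyst 0 of the 48 genes were called in SPIA and 0 in SoLo by edgeR, where 14.7% of all identifiers were called in SPIA (4.71% higher and 9.95% lower) and 1.14% in SoLo (0.113% higher and 1.03% lower). In SPIA 2 of them (NDUFS7 and UQCRH) and in SoLo 8 had an unadjusted p under 0.05. DESeq2 called 0 in SPIA and 3 in SoLo (NDUFS7, NDUFV1 and UQCRC1, all higher in blastocysts), and voom called 4 in SPIA (NDUFS1, NDUFS7, NDUFV1 and UQCRH) and 1 in SoLo (NDUFV1), all higher. Of all identifiers DESeq2 called 679 of 14196 in SoLo, and voom called 2235 of 15578 in SPIA and 291 of 14196 in SoLo, so the share of the 48 genes called by voom in SPIA lies below that of all identifiers. In SoLo 39 of the 48 log2 fold changes were above 0, with a median of 0.37 against 0.05 for all identifiers, and ATP5F1A changed by 0.39 ± 0.15 (edgeR adjusted p = 0.193). Without the SoLo morula 022916_01, whose trophectoderm markers summed to 1223 CPM against 7.62 and 57.9 CPM in the other SoLo morulas, 3 of 49 genes were called (ATP5IF1, COX5A and NDUFV1), all higher in blastocysts, with 1477 of 15120 identifiers called, a larger share.

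The 2 delayed blastocysts share a title code with 2 of the expanded ones. Against the expanded blastocysts 0 of 48 genes were called by edgeR, 0 had an unadjusted p under 0.05, and 0% of all identifiers were called. DESeq2 called 0 of the 48 and 25 of all identifiers, and voom called 0 of the 48 and 1 of all identifiers. Within title code 112515 0 of the genes tested were called. The median of the 48 log2 fold changes was 0.09, and single values ran from -1.22 ± 1.39 for NDUFA11 to 0.95 ± 1.10 for COX7A2. Trophectoderm markers summed to 144 and 289 CPM in the delayed blastocysts, within the range of the expanded ones.

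The kits gave different levels for many of these genes in the same embryos. Over the 13 embryos of the SoLo libraries, 14 of 48 genes were higher in SoLo and 10 lower, where 11.8% of all identifiers were higher and 11.4% lower. For levels scaled over both kits together, SDHD had 2.54 ± 1.55 CPM in SPIA and 21.1 ± 11.4 CPM in SoLo (n = 13 each), a log2 difference of 2.89 ± 0.44 (edgeR adjusted p = 6.57e-06). The ranges were 0.227 to 4.78 CPM in SPIA and 4.50 to 40.2 CPM in SoLo, and they overlapped between 4.50 and 4.78 CPM. CYC1 had 25.9 ± 16.6 CPM in SPIA and 112 ± 50.3 CPM in SoLo (2.16 ± 0.24, edgeR adjusted p = 2.66e-08). ATP5MC1 lay the other way, with 37.8 ± 23.7 CPM in SPIA and 5.60 ± 4.52 CPM in SoLo (-3.03 ± 0.54, edgeR adjusted p = 7.31e-05).

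By complex, 3 of 4 genes of complex II, 3 of 5 of complex III and 2 of 6 of complex IV were higher in SoLo and none was lower. In complex I 4 were higher and 7 lower, and in complex V 2 were higher and 3 lower. Besides SDHD and CYC1, the largest differences toward SoLo were those of NDUFB5 (1.97 ± 0.39), COX7A2 (1.75 ± 0.36), NDUFA9 (1.69 ± 0.24) and ATP5F1C (1.59 ± 0.18). Besides ATP5MC1, those toward SPIA were NDUFB2 (-2.11 ± 0.39), NDUFS8 (-2.07 ± 0.47), NDUFB9 (-1.26 ± 0.24), NDUFV1 (-1.08 ± 0.35) and NDUFV3 (-1.07 ± 0.26).

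**Figure D4:**
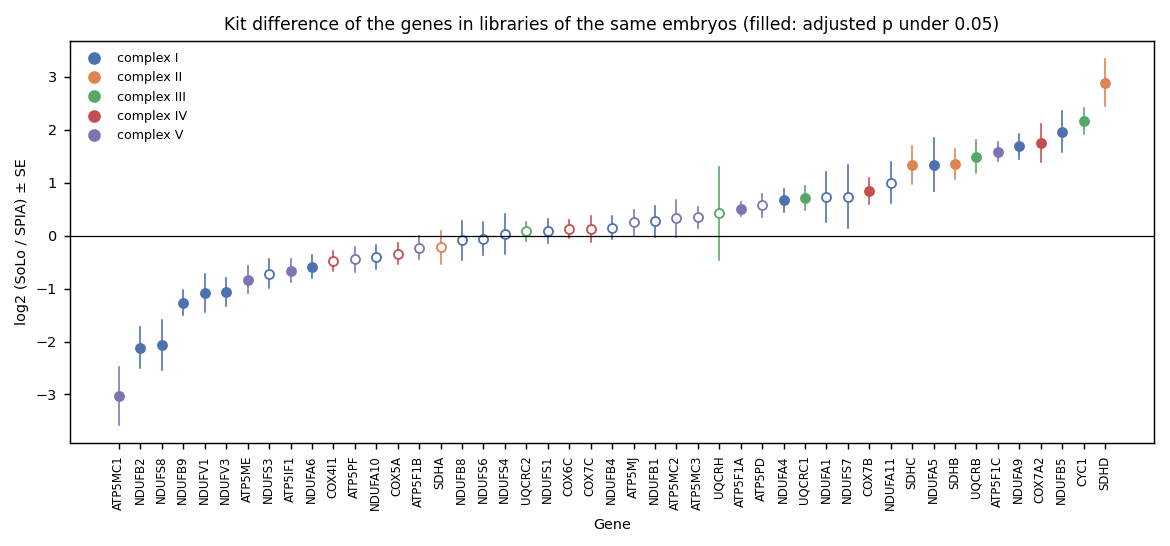
log2 difference ± SE between SoLo and SPIA (y axis) for 47 of the 48 tested genes (x axis, in order of size) in libraries of the same 13 embryos, coloured by complex, with filled points at an adjusted p under 0.05. The values run from -3.03 for ATP5MC1 to 2.89 for SDHD.

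A gene called in one kit and not in the other was not thereby shown to differ between them. The difference between kits in the change from 8-cell embryo to morula, tested in the same embryos, was called for 0 of 48 genes by edgeR (3 at an unadjusted p under 0.05) and for 1 by DESeq2, where edgeR called 0% of all identifiers. For the change to the expanded blastocyst the counts were 0 by edgeR (9 at an unadjusted p under 0.05) and 1 by DESeq2, where 0.0336% of all identifiers were called (0.00672% with a larger and 0.0269% with a smaller change in SoLo). The gene called by DESeq2 was NDUFB5 in both cases, with a smaller rise in SoLo: its edgeR difference was -3.11 ± 0.80 for the morula (edgeR adjusted p = 0.323) and -2.90 ± 0.68 for the expanded blastocyst (edgeR adjusted p = 0.111). Its SPIA level in 8-cell embryos of this comparison was 0.998 ± 0.728 CPM (n = 4), from 1, 6, 14 and 27 counts.

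The SPIA embryos without a SoLo library share no embryo with the SoLo groups. Among them edgeR called 3 genes in morulas, ATP5F1A (2.73 ± 0.58), ATP5MC3 (4.18 ± 0.92) and COX5A (2.78 ± 0.62), and the same 3 in expanded blastocysts, and all 3 were called in SoLo in both comparisons. Of all 11491 identifiers tested in those embryos 290 were called in morulas and 2231 in expanded blastocysts, so at the blastocyst stage the 3 of 47 genes lie below the share of all identifiers. Of the 27 genes called in SoLo morulas, 27 had the same sign in those SPIA embryos, and of the 34 called in SoLo expanded blastocysts and tested in both, 31 did. Agreement of sign was not counted over all identifiers. Most of the 48 genes lay above 0 with all libraries: 38 in SPIA and 42 in SoLo morulas, and 40 and 47 in expanded blastocysts.

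Other genes of the pathway were taken as whole lists. The counts below compare with the shares of all identifiers tested. In SPIA morulas 9.06% of these rose and 10.3% fell, and in SoLo morulas 9.78% rose and 6.92% fell. Of the assembly factors, which build the complexes but are not part of them, 2 of 37 tested rose and 0 fell in SPIA morulas, and 6 of 38 rose and 1 fell in SoLo morulas. NUBPL, which inserts iron-sulfur clusters into complex I, was at 0.576 ± 0.524 CPM in 8-cell SPIA libraries (n = 9) and 22.6 ± 41.5 CPM in morulas (n = 11), and it rose by 5.26 ± 1.05 on the log2 scale (edgeR adjusted p = 0.000818). TTC19, a complex III factor, rose in SoLo morulas from 4.29 ± 1.66 CPM (n = 4) to 31.7 ± 23.8 CPM (n = 3). BCS1L, which places the iron-sulfur protein in complex III, fell by 1.15 ± 0.33 on the log2 scale there (edgeR adjusted p = 0.0264).

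Of the genes for carriers, coenzyme Q and entry of electrons, 6 of 19 rose and 0 fell in SPIA morulas, and 9 of 21 rose and 0 fell in SoLo morulas. GPD2, the mitochondrial glycerophosphate dehydrogenase that feeds electrons to ubiquinone, went from 9.98 ± 11.7 CPM (n = 9) to 130 ± 148 CPM (n = 11) in SPIA and from 12.3 ± 5.81 CPM (n = 4) to 331 ± 125 CPM (n = 3) in SoLo, where its log2 fold change was 4.75 ± 0.40 (edgeR adjusted p = 2.47e-06). ETFB, a subunit of the electron transfer flavoprotein, went from 1.17 ± 2.06 CPM to 18.0 ± 23.0 CPM in SPIA. COQ7, of coenzyme Q synthesis, was listed at 0 in the SoLo 8-cell libraries and at 1.57 ± 1.25 CPM in SoLo morulas.

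Of the regulators of mitochondrial genes and mitochondrial DNA, 4 of 20 rose and 2 fell in SPIA morulas, and 5 of 20 rose and 1 fell in SoLo morulas. ESRRA, a nuclear receptor known to act on genes of oxidative phosphorylation, was nearly absent in 8-cell embryos (0.121 ± 0.141 CPM in SoLo, n = 4) and stood at 11.8 ± 11.3 CPM in SoLo morulas (n = 3) and 17.8 ± 4.54 CPM in SoLo expanded blastocysts (n = 6). PPRC1, a coactivator of the PGC-1 family, fell by 1.74 ± 0.33 on the log2 scale in SPIA morulas (edgeR adjusted p = 0.000389) and by 1.62 ± 0.29 in SoLo morulas (edgeR adjusted p = 0.00117). NRF1, a transcription factor of respiratory chain genes, fell by 2.76 ± 0.94 in SPIA morulas (edgeR adjusted p = 0.0326), and in SoLo morulas its change was -1.19 ± 0.47 (edgeR adjusted p = 0.0881).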

How the data were processed

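The deposited table holds raw read counts in whole numbers, with Ensembl identifiers and symbols in rows and a column for each library, per the file headers. HISAT2 and DESeq2 are named, without versions, per the submitters' processing notes. For the counter, build, annotation and strand setting, the entry is the same: not given in the sources used here. Overlapping genes and near-identical copies, such as processed pseudogenes of these families, may therefore share counts. Of 52 columns, 49 were used. 2 columns of code 111215 matched their group but no single embryo, and another 3, which fit no title, were left aside. No sequences or coordinates were used. The values of 1 tested gene are not reported here, though it stays in the counts and sums.

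The main test was the robust quasi-likelihood test of edgeR 4.0.16 under R 4.3.3 (TMM scaling, filterByExpr with a minimum count of 10, Benjamini-Hochberg over all identifiers tested), with all groups of a kit in 1 fit. An SE is the size of the log2 fold change over the root of F. Levels in CPM use the TMM factors. Kits were compared with stage in the model, and kit by stage as an interaction. DESeq2 1.42.0 and limma 3.58.1 voom were alternatives, besides RLE scaling, no filter, a minimum of 50, scaling without the 20 most abundant identifiers, a fit of only the groups compared, and left-out libraries. Leaving out morula 022916_02, alone or with 8-cell 020816_09, and the unblocked fit of 11 pairs were chosen after seeing the data. Scripts were tested on simulated counts. Tables and figures used Python 3.11.15, pandas 2.3.3 and matplotlib 3.10.9.

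Genes, lists and tests were chosen with earlier results of these data known. Genes named are up to 6 of the largest called changes in each direction of a comparison, the core subunits, isoform sets, those called against the majority and those with nearly no counts.

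Embryos were paired between kits where stage, code and number match in the titles. Over 11 pairs, deviations from group means correlated with a median of 0.224, 10 pairs lay above 0.1 and the lowest, 111715_02, was at -0.0197. The labels give libraries of a group as separate embryos. Embryos with a shared code may share parents, so p-values measure the spread between these libraries. Totals were 0.601 to 21.0 M counts in SPIA and 5.70 to 10.6 M in SoLo, and precision from depth covers counting error only, since no molecular identifiers were counted.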

Additional observations from a re-analysis of the deposited data

Results flagged for a closer look

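In groups of 4 to 10 libraries, 15 of 165 checks found 1 library far from the rest by Dixon's criterion, where chance gives about 1 in 20. Single genes were checked as log2(CPM + 1) and summed levels as CPM. On the log2 scale a value near 0 stands further from the rest than in the CPM given here. In 8-cell SPIA embryos the summed complex I level of 011516_02 was 1084 CPM (median of the others 390). The library 020816_09 was the lowest for 6 genes: NDUFS3 at 0.456 CPM (others 34.0), NDUFV1 at 0 CPM (31.9), CYC1 at 0 CPM (6.64), UQCRC1 at 0.182 CPM (34.7), COX6C at 0.182 CPM (35.9) and ATP5IF1 at 1.64 CPM (119). NDUFA6 was lowest in 011516_03 at 0.987 CPM (48.5), and COX7A1 was highest in 020816_06 at 1.10 CPM, with a median of 0 in the others.

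In 8-cell SoLo embryos 020816_08 was lowest for NDUFS4 at 2.49 CPM (23.3) and NDUFS8 at 0.113 CPM (4.64), and COX7A1 was highest in 112815_02 at 1.34 CPM (median of the others 0). In SoLo expanded blastocysts NDUFA11 was highest in 112415_03 at 69.6 CPM (55.3), COX5A was highest in the second column of code 111215 at 374 CPM (273), and ATP5PD was lowest in 111715_02 at 128 CPM (161).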

How the results depend on the processing

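No called gene named in the text changed direction under any alternative run. In the change from 8-cell to morula in SPIA the count of called genes was 15, and it was 4 with only these groups in the fit (ATP5F1A, ATP5MC3, COX5A and NDUFA4), 3 among embryos without a SoLo library and 0 in code 020816 alone. To the expanded blastocyst it was 17, 30 with voom and 3 among embryos without a SoLo library. In SoLo morulas it was 27, and 17 with only these groups in the fit. From morula to expanded blastocyst it was 0, and 4 with voom in SPIA, 3 with DESeq2 and 1 with voom in SoLo. For the kit differences in change the count was 0, and 1 with DESeq2 at each stage. The causes were not tested. Leaving out 1 SoLo 8-cell embryo, SoLo morula or delayed blastocyst at a time (the larger groups were not left out in this way) gave 20 to 28 calls for the SoLo morula, 33 to 36 for the SoLo expanded blastocyst, 0 to 3 between those stages (3 without morula 022916_01) and 0 for delayed blastocysts. With embryo as a replicate block, in 11 pairs, 20 kit differences in level were called in place of 24 (20 also in these pairs without the block), and 0 kit differences in change at either stage. At this depth the gene counts of the 0.601 M library summed to 755 over the 50 genes.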
